A study of Mus musculus with 3 samples.

Results

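In 227 places of the mouse genome, Isl1 peaks of cardiac progenitor cells (CPCs) lay so close together that no more than 1000 bp separated one peak from the next. These runs held 473 of the 14082 distinct peaks (3.36%). They were chosen from the deposited peak positions alone: lines with identical values were counted once, peaks were sorted by chromosome and start, and a peak was kept where the gap to the previous or the next peak, the start minus the previous end, was at most 1000 bp. Gap length, run length and closeness to a neighbour are therefore descriptions of the choice and carry no test. Of the 13609 other peaks, 1457 had a neighbour 1 to 10 kb away and 12152 had none within 10 kb.

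Isl1 occupancy was mapped by ChIP-Seq, the sequencing of DNA that an antibody pulls down with crosslinked chromatin, in 2 Isl1 ChIP replicates and 1 input sample of chromatin taken before the pulldown. All 3 samples came from E14 Tg(Nkx2-5-EmGFP) ES cells, a single mouse embryonic stem cell line that carries a green fluorescent reporter under Nkx2-5 control, and no second line, genotype or treatment was compared. The cells were primed with BMP4, aggregated, aggregated again with Activin A, VEGF and BMP4, plated with VEGF, bFGF and FGF10, and harvested at day 5. The deposited list combines both replicates and gives positions, the assigned gene and the distance to its transcription start site (TSS), without a score or a read number. No value per replicate, no depth and no replicate error can be given, and the labelled cell type could not be checked against marker genes, since a peak list measures no expression.

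Isl1 is a LIM-homeodomain transcription factor that marks progenitors of the second heart field, the source of the outflow tract, the right ventricle and part of the atria, and it also acts in motor neurons and other neurons. Homeodomain proteins of this class recognise short AT-rich strings with a TAAT core. Many vertebrate promoters lie in CpG islands, stretches rich in G, C and the dinucleotide CpG, and genes of developmental transcription factors often carry several such islands around a start site. Enhancers and promoters of a gene can also sit side by side, so that neighbouring peaks may mark separate elements or parts of the same element.

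The sequences below show what lay between neighbouring peaks. They were read from the plus strand of mm9 as 100 bases at the midpoint of each peak and of the gap between them, with every CpG in capitals. "Left" and "right" follow the chromosome, not the direction of the gene. At Nkx2-5, which encodes the homeodomain factor of early cardiomyocytes, the left peak (chr17:26975662-26976846) lay 2256 bp downstream of the TSS by its midpoint and the right peak (chr17:26977709-26978620) lay 346 bp downstream, with a gap of 863 bp. Both midpoints lay in coding exons. The 3 windows, at chr17:26976205-26976304, chr17:26977228-26977327 and chr17:26978115-26978214, held 18, 4 and 8 CpG.
Nkx2-5 left peak centre: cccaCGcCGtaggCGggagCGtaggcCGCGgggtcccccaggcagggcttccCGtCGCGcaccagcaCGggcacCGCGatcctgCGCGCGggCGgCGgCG
Nkx2-5 gap centre: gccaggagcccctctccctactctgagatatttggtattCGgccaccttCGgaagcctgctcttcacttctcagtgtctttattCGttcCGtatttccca
Nkx2-5 right peak centre: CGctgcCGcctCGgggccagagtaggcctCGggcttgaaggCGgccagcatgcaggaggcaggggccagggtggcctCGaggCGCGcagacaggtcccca
The left window was the densest in CpG and the gap the sparsest.

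Tbx1 encodes a T-box factor required for the outflow tract and the pharyngeal arches. Its left peak (chr16:18586337-18587406) lay 191 bp downstream of the TSS, centred on a coding exon, and the right peak (chr16:18587961-18589195) lay 1516 bp upstream in intergenic sequence. The gap of 555 bp between them had the lowest GC content of all gaps at genes of the lists, 34.5% over its central 200 bp, against 79.5% and 58.5% in the peaks. The windows were chr16:18586822-18586921, chr16:18587634-18587733 and chr16:18588529-18588628, and they held 20, 1 and 5 CpG.
Tbx1 left peak centre: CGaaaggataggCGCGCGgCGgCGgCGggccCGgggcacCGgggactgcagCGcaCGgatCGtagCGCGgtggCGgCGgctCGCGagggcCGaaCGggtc
Tbx1 gap centre: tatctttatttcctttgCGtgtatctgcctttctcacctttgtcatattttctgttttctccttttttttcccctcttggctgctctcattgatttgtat
Tbx1 right peak centre: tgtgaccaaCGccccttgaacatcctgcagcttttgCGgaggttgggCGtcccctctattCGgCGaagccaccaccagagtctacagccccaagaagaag
The gap window was rich in T, and its only CpG lay near its left end.

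Rarg encodes a nuclear receptor for retinoic acid. It was the 1 list gene with both peaks upstream of the assigned TSS, at chr15:102077345-102077900 (691 bp upstream) and chr15:102078027-102078512 (1338 bp upstream), both in an intron of the reference annotation and 127 bp apart. The windows chr15:102077573-102077672, chr15:102077914-102078013 and chr15:102078220-102078319 held 11, 3 and 17 CpG.
Rarg left peak centre: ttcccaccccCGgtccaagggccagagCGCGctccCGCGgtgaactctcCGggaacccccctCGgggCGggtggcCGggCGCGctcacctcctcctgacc
Rarg gap centre: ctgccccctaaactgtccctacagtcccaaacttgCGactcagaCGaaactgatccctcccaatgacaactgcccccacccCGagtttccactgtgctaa
Rarg right peak centre: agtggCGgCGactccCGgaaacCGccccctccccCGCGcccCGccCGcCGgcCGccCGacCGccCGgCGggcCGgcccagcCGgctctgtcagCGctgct
Here too the gap was the sparsest of the 3 in CpG.

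Nr2f2 and Foxc1 are shown as the exceptions. Nr2f2 encodes the orphan nuclear receptor COUP-TFII of atrial and venous cells, and its peaks (chr7:77504679-77505484, 398 bp downstream of the TSS, and chr7:77506481-77507053, 1288 bp upstream) were separated by 997 bp, the longest gap within the limit. The gap centre had a GC content of 83.0%, above both peaks at 79.5% and 76.5%. Its windows chr7:77505032-77505131, chr7:77505933-77506032 and chr7:77506718-77506817 held 14, 16 and 17 CpG.
Nr2f2 left peak centre: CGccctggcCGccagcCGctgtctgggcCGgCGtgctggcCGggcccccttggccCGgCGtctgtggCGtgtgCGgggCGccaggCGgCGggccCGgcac
Nr2f2 gap centre: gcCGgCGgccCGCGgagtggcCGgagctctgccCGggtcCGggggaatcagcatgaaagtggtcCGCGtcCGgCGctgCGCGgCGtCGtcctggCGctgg
Nr2f2 right peak centre: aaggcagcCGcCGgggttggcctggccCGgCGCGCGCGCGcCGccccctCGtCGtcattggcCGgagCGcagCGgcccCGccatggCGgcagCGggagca
All 3 windows were CpG-dense, so no drop marked the gap between the Nr2f2 peaks.

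Foxc1 encodes a forkhead factor of mesoderm and the outflow tract, and its peaks (chr13:31897993-31899343 and chr13:31899429-31900730) lay 153 and 1564 bp downstream of the TSS, 86 bp apart. The gap centre (55.0% GC) was close to the left peak (54.0%) and below the right peak (72.5%). The gap window at chr13:31899337-31899436 held 3 CpG and the right window at chr13:31900030-31900129 held 17.
Foxc1 gap centre: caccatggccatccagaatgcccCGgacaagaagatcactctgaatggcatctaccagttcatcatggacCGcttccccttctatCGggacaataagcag
Foxc1 right peak centre: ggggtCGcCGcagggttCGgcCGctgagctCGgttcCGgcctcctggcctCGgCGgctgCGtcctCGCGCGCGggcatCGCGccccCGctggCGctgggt
The gap window resembled the left peak rather than the right peak in base composition.

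The 473 peaks formed 211 runs of 2 peaks, 14 of 3, 1 of 4 and 1 of 5, on 21 chromosomes. The 246 gaps within these runs ranged from 2 to 997 bp with a median of 177.5 bp and quartiles of 54.75 and 452.8 bp. Short gaps prevailed: 94 of 246 (38.2%) were at most 100 bp and 60 were at most 50 bp, against 6 between 900 and 1000 bp. Beyond the limit the numbers went on without a break, with 54 gaps from 1000 to 1500 bp and 36 from 1500 to 2000 bp. Just inside the limit lay the gaps at Tbc1d22a (924 bp), Nr4a3 (929 bp), Barhl1 (945 bp), Lbx1 (964 bp) and Nr2f2 (997 bp). Just outside lay those at Mcidas (1007 bp), Rtn4rl2 (1025 bp), Nfatc4 (1027 bp), Hrk (1028 bp) and Irx5 (1029 bp), so the limit separated pairs of much the same spacing.

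**Figure D1:**
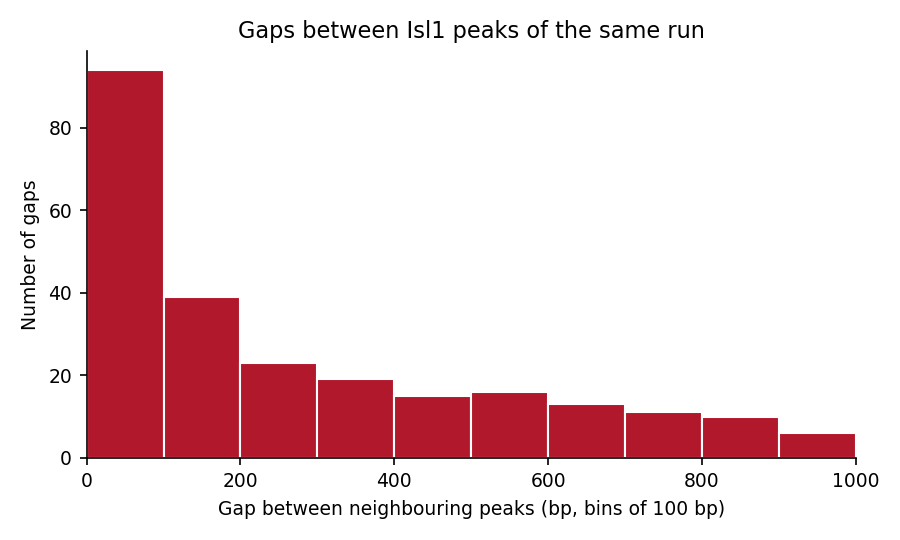
Number of gaps between neighbouring Isl1 peaks (y axis) by gap length in bp (x axis, bins of 100 bp) for the 246 gaps within runs. The first bin holds 94 gaps and the last holds 6.

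The peaks on either side of a gap were somewhat narrow. Paired peaks had a median width of 853 bp (quartiles 644 and 1153 bp, range 298 to 3766 bp), against 950 bp in the other peaks (quartiles 720 and 1246 bp). Taken from its first start to its last end, a run spanned a median of 2172 bp (range 750 to 7222 bp), and 134 of 227 runs spanned at least 2 kb. Only 16 paired peaks reached that width by themselves. The widest were at Plec (3766 bp, chr15:76008868-76012634), which encodes the cytoskeletal linker plectin, Brd2 (3604 bp), which encodes a bromodomain protein that binds acetylated histones, 2310011J03Rik (3249 bp), Fbxo25 (2918 bp) and Ptma (2806 bp). Neighbours were unequal, the wider being a median of 1.48 times as wide as the narrower (quartiles 1.21 and 1.92).

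The shortest gaps between peaks at single-copy sequence were nearly closed. They were 2 bp at C1ql4 and at Mir6991, 6 bp at Mapt, which encodes the neuronal microtubule protein tau, and at Mb21d2, 7 bp at Gm5607, Raet1a and Brpf1, which encodes a scaffold of histone acetyltransferase complexes, 8 bp at Ago1, a gene of the RNA interference machinery, and at Cdk3-ps, and 9 bp at Tmem132c. Gaps of 9 bp also occurred at Klhl29 and at Socs1, an inhibitor of cytokine signalling. At C1ql4 the peaks stood 108 bp downstream and 625 bp upstream of the TSS, and at Ago1 591 bp downstream and 92 bp upstream. In these pairs the border between the peaks fell within a promoter.

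Runs held promoters more often than not. At least 1 peak lay within 1 kb of its assigned TSS in 155 of 227 runs (68.3%, 95% Wilson interval 62.0 to 74.0), every peak did in 71 (31.3%), and no peak came within 10 kb in 43 (18.9%). Any of the several peaks of a run can count here, so the 68.3% has no like share among single peaks. Counted by peak, 233 of 473 paired peaks (49.3%, interval 44.8 to 53.8) lay within 1 kb of the TSS, where 38.5% of all peaks and 38.1% of the other peaks lay. The difference between paired and other peaks was 11.2 percentage points (95% Newcombe interval 6.62 to 15.7). It turned round among peaks at single-copy sequence, where 227 of 401 paired peaks (56.6%) and 5047 of 7135 other peaks (70.7%) lay within 1 kb, and with the pairing repeated on single-copy peaks the difference was -13.8 points (interval -18.9 to -8.78). These intervals cover counting error only, and since peaks of a run share a place they are too narrow.

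Under either count, more paired than other peaks lay in the zone next to the promoter. Between 1 and 10 kb from the TSS lay 149 paired peaks (31.5%, interval 27.5 to 35.8), against 9.73% of the other peaks, a difference of 21.8 points (interval 17.7 to 26.1), and at single-copy sequence the shares were 33.9% and 10.8%. Of those 149 peaks, 90 (60.4%) belonged to a run in which another peak lay within 1 kb of its TSS, so many of these were the neighbours of promoter peaks. More than 10 kb away lay 91 paired peaks (19.2%), against 52.2% of the other peaks, a difference of -32.9 points (interval -36.4 to -29.1). The near zone did not separate paired peaks from those with a neighbour 1 to 10 kb away, of which 28.5% (interval 26.2 to 30.9) lay there, whereas 7.48% of peaks with no neighbour within 10 kb did. Beyond 10 kb lay 34.5% of peaks with a neighbour 1 to 10 kb away. By closest protein-coding TSS of the GENCODE annotation, the share within 1 kb was 55.2% in paired and 39.9% in other peaks.

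**Figure D2:**
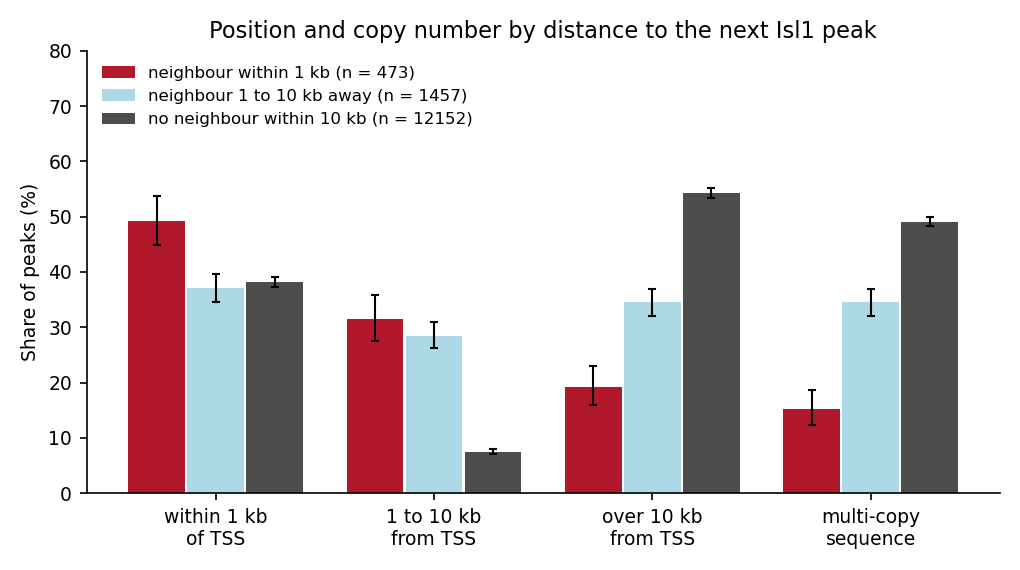
Share of peaks in percent (y axis) within 1 kb, 1 to 10 kb and more than 10 kb from the assigned TSS and at multi-copy sequence (x axis), for peaks with a neighbour within 1 kb (n = 473), 1 to 10 kb away (n = 1457) and with none within 10 kb (n = 12152). Bars give the share and whiskers the 95% Wilson interval. The near zone held 31.5%, 28.5% and 7.48% of the 3 groups and multi-copy sequence 15.2%, 34.5% and 49.1%.

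Neighbours were nearly always given to the same gene, in 233 of 246 gaps (94.7%, interval 91.2 to 96.9). Each peak was assigned the closest TSS and neighbours were chosen for being close, so this share follows largely from the choice. By the signs of the deposited distances, both midpoints were downstream in 104 of the 233 gaps (44.6%), on opposite sides in 80 (34.3%) and both upstream in 49 (21.0%). The distances of neighbours can refer to different start sites of the gene. At Bcl2l11 they were 152 and 95 bp downstream although the midpoints lay 1480 bp apart. In 19 gaps (7.72%) an annotated protein-coding TSS lay in the gap itself. These included the gaps at Bcl11b, a zinc-finger factor of T cells and neurons, at Rbpj, the DNA-binding effector of Notch signalling, at Socs2, and at Npr2, the receptor of C-type natriuretic peptide, genes named here after their values were seen. Either a peak or the gap held such a TSS in 160 of 246 cases (65.0%).

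Within 10 kb of the TSS, 253 of 382 paired peaks (66.2%) had their midpoint at or downstream of it, against 76.7% of the other peaks (difference -10.5 points, interval -15.4 to -5.78). Within the zone from 1 to 10 kb the order was the opposite, with 104 of 149 paired peaks (69.8%) and 56.8% of the other peaks downstream (difference 13.0 points, interval 4.77 to 20.3). Midpoints of paired peaks fell in coding exons in 105 cases (22.2%, against 13.4% of other peaks, difference 8.80 points, interval 5.23 to 12.8, and 23.7% of peaks with a neighbour 1 to 10 kb away), in untranslated exons in 83 (17.5% against 16.1%), in introns in 130 (27.5% in both) and in intergenic sequence in 134 (28.3% against 41.5%). The remaining 21 lay in exons without a coding frame. The share in coding exons was thus no higher than in the peaks with the next closest neighbours, and 12.2% of peaks with no neighbour within 10 kb lay there.

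In 13 gaps the neighbours were assigned to different genes, and several of these spans held start sites of more than 1 gene. Capza1 and St7l (gap 97 bp), Hs2st1 and Selenof (23 bp), Sart3 and Iscu (505 bp), Git2 and 4930515G01Rik (743 bp), and Actg1 and 0610009L18Rik (694 bp) each had annotated start sites of more than 1 gene within a peak or the gap. Vax2 and its antisense transcript Vax2os (31 bp) also took 1 peak each. At the Igf2 locus, which encodes an imprinted fetal growth factor, a peak assigned to Igf2os lay between a pair of Igf2 peaks with gaps of 205 and 204 bp. The others were 2310011J03Rik and Pcsk4, Pfn1 and Eno3, Gm11596 and Gm11569, Gsk3b and BC031361, and Pcnx3 and Map3k11. Which of the genes such a peak belongs to cannot be told apart from peak positions.

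Assignments named 233 genes, 2.5% of the 9313 genes with any peak. A gene needs more than 1 peak, or a neighbour's peak close by, to enter, and among the 2701 genes with 2 or more peaks 214 (7.92%) had a paired peak. The lists were counted over their genes with any peak, so their like share is the 2.5% and not the 7.92%. Cardiac transcription factors had 4 of 50 genes with a peak (8.0%) and patterning and neural transcription factors 8 of 107 (7.48%). Signalling genes had 7 of 114 (6.14%), chromatin regulators 2 of 66 (3.03%), sarcomere and contraction genes 1 of 13 (7.69%) and housekeeping genes 0 of 7. The number of peaks per gene was not matched between the lists and all genes. The counts are small, and no test between lists was made. Paired peaks at list genes numbered 44 in 23 neighbouring pairs, and all lay at single-copy sequence.

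Among the 4 cardiac factors, Nkx2-5, Tbx1, Nr2f2 and Foxc1, every pair had 1 peak within 400 bp of the TSS. At Tbx1 and Nr2f2 the partner lay more than 1 kb upstream, and at Nkx2-5 and Foxc1 more than 1.5 kb downstream. Among the 8 patterning and neural factors, downstream pairs marked Foxd3 (135 and 1396 bp, gap 20 bp), a forkhead factor of neural crest, Gsx1 (323 and 1181 bp, gap 58 bp), a homeodomain factor of the ventral forebrain, and Sox1 (15 and 1532 bp, gap 60 bp), an HMG-box factor of neural progenitors.

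Pairs that straddled the TSS occurred at Barhl1 (557 bp downstream and 1447 bp upstream, gap 945 bp), Tlx2 (502 and 1214 bp, gap 220 bp), Sox10 (1090 and 27 bp, gap 201 bp), which directs neural crest and glia, and Hmx3 (1347 and 330 bp, gap 424 bp), a homeodomain factor of the inner ear. In each, the first distance is downstream. At Vax2, a homeodomain factor of the ventral eye, the Vax2 peak was centred 1 bp downstream of its TSS and the neighbour belonged to Vax2os. The peak nearer the TSS was the narrower at Sox10 (609 bp against 1224 bp) and the wider at Barhl1, Tlx2 and Hmx3.

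The signalling genes included ligands, receptors and inhibitors. Dll1, which encodes a Notch ligand, had peaks 862 bp downstream and 296 bp upstream of the TSS (gap 153 bp), and Notch3, which encodes a Notch receptor of vascular smooth muscle, had peaks 914 bp downstream and 69 bp upstream (gap 231 bp). The ligand genes Wnt2b (56 bp downstream and 768 bp upstream, gap 49 bp) and Pdgfb (2223 and 470 bp downstream, gap 436 bp) had 1 pair each. Smad7, an inhibitor of TGF-beta and BMP signalling, had peaks 204 bp upstream and 1690 bp downstream (gap 535 bp).

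Cyp26b1, whose enzyme breaks down retinoic acid, was the list gene with a run of 3 peaks. They lay at chr6:84537469-84538252, chr6:84538499-84538847 and chr6:84538892-84539442, with gaps of 247 and 45 bp, at deposited distances of 5944, 5131 and 4637 bp downstream of the TSS. The GENCODE annotation has a start of a protein-coding transcript of the gene within the middle peak, so the distance depends on the annotation. GC content went 67.0%, 46.5%, 78.5%, 46.5% and 69.5% from the first peak through both gaps to the last. The middle peak was only 348 bp wide and the richest in GC of the 3.

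Among chromatin regulators, the pairs lay at Dpf1 (42 and 994 bp downstream, gap 237 bp), a neuronal subunit of BAF remodelling complexes, and at Kat6b (71 and 1275 bp downstream, gap 24 bp), a histone acetyltransferase. Cacna1c, the pore subunit of the cardiac L-type calcium channel, was the contraction gene, with peaks 854 bp downstream and 174 bp upstream (gap 99 bp). Over the 23 pairs at list genes, 11 straddled the TSS, 10 lay downstream, 1 lay upstream and 1 joined different genes.

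**Figure D3:**
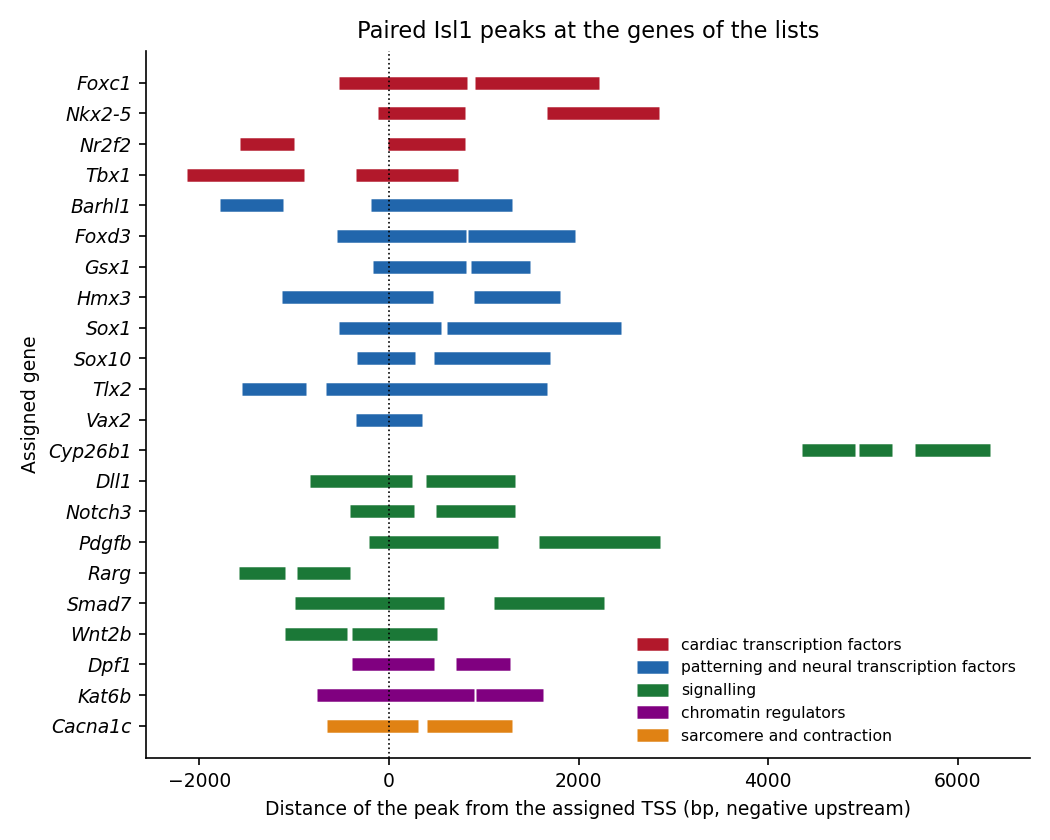
Positions of paired Isl1 peaks (bars) around the assigned TSS in bp (x axis, negative upstream) at the 22 genes of the lists (y axis), coloured by list. The peaks of Cyp26b1 lie around 5 kb downstream, and at Vax2 only the peak assigned to Vax2 is drawn, its neighbour being assigned to Vax2os.

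Runs of 3 or more peaks were few and differed in kind. At Cdk6, which encodes a cyclin-dependent kinase of the G1 phase, peaks stood 2588 and 1367 bp upstream and 420 bp downstream of the TSS. Zfp423, a zinc-finger factor of BMP-dependent development, had peaks 549 bp downstream and 837 and 2292 bp upstream. Bcl11a, a zinc-finger repressor, had all 3 peaks upstream, at 1649, 762 and 215 bp. Hic1, a transcriptional repressor, had peaks at deposited distances of 1836 bp downstream and 567 and 138 bp upstream over a span of 5604 bp. Its outermost upstream peak had the smaller distance, so these distances refer to different start sites.

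Others extended into the gene. Bbc3, which encodes the cell-death protein PUMA, had peaks 488, 2688 and 4307 bp downstream over 5093 bp, Ddn had them at 59, 998 and 2266 bp downstream, and Ap5b1 at 260 bp upstream and 1197 and 2367 bp downstream. Kif26a, a kinesin gene, carried 5 paired peaks, a pair at the TSS (1976 and 10 bp upstream) and a run of 3 between 28091 and 31414 bp downstream, of which 2 lay in coding exons. Runs of 3 also lay at Tmem59l, Tmem132e and Mir6991, and across Igf2 and Igf2os and 2310011J03Rik and Pcsk4. The run at Mir6991 was almost continuous, with gaps of 2 and 22 bp, and its peaks lay in coding exons and an untranslated exon.

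The longest runs were those of Pcnx3 and Map3k11, with 4 peaks over 6022 bp, and of Tagap, with 5 peaks over 7222 bp (chr17:8099320-8106542). The Tagap peaks lay in introns of the annotation, 13142 to 18979 bp upstream of the assigned TSS, with gaps of 34, 138, 392 and 132 bp. Neighbours in that run shared between 10.0% and 25.3% of their 31-base words, although 4 of the 5 peak centres were single-copy by the measure used here. Genes with 4 paired peaks were 2310011J03Rik, Ahdc1, Cbarp, Crlf2 and Foxp4. Foxp4, a forkhead repressor, had a pair at its TSS (382 bp downstream and 551 bp upstream) and another about 50 kb upstream (49679 and 50846 bp).

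GC content dipped between neighbouring peaks, down to about the level at the outer edges of the run. The central 200 bp of a gap had a mean GC content of 54.2% ± 8.02 (SD, n = 246 gaps), against 68.1% ± 6.16 in the centres of the neighbouring peaks, a difference of -13.9 points (95% interval -15.0 to -12.8). In gaps of at most 200 bp this window includes peak bases. In the 113 longer gaps the difference was -16.3 points (interval -18.0 to -14.6). The gap centre lay below both of its peaks in 214 of 246 cases (87.0%, interval 82.2 to 90.6), and in 174 of 199 (87.4%) where both peaks were single-copy.

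The ratio of observed to expected CpG showed the dip as well, with 0.485 ± 0.271 in gaps and 0.714 ± 0.244 in peaks (SD, n = 237 gaps with a defined ratio, difference -0.229, interval -0.263 to -0.195). It was below both peaks in 163 of 246 gaps (66.3%). Averaged per run (n = 227), GC content was 54.1% ± 8.04 at gap centres and 68.0% ± 6.22 at peak centres. At the outer edges it was 52.8% ± 5.76, in windows of 200 bp centred on the first start and the last end. These windows lie partly inside a peak, as do those of the short gaps. Gap minus outer edge was 1.23 points (interval 0.205 to 2.26), so the gap was much like the edge of a run. Farther out GC content was lower, 48.5% and 48.4% at 2975 bp left and right of gap midpoints. Other peaks also went from 66.8% near the midpoint to 47.9% at 625 bp to the left, so a lower GC content outside peaks was not limited to gaps.

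**Figure D4:**
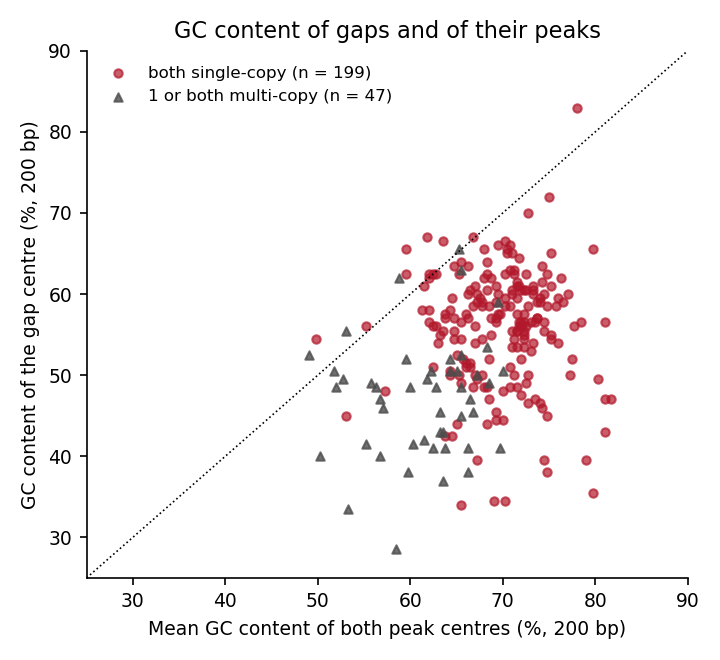
GC content of the central 200 bp of each gap (y axis, percent) against the mean of the centres of both neighbouring peaks (x axis, percent), for 199 gaps between single-copy peaks (circles) and 47 with 1 or both peaks at multi-copy sequence (triangles). The dotted line marks equal values, and nearly all points lie below it.

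Farther out the surroundings differed from those of other peaks. Mean GC content at 1525 bp from the midpoint was 52.7% for paired peaks and 43.5% for other peaks, and at 625 bp to the left it was 56.1% and 47.9%. The neighbouring peak lay at a median distance of 1203 bp between midpoints, and its part in this was not tested. At 2975 bp to the right GC content was still 48.0% for paired and 43.5% for other peaks. The groups were not matched for distance to the TSS or for multi-copy sequence. At list genes 21 of 23 gaps were below both peaks, with Nr2f2 and Foxc1 as the exceptions printed above. The gap centre lay well below both peaks at Barhl1 (69.0%, 48.0% and 71.0% from left to right), Tlx2 (70.5%, 50.0% and 72.0%) and Nkx2-5 (72.5%, 52.0% and 71.5%). Dips at Tbx1 and Cyp26b1, whose values are given above, were deeper.

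**Figure D5:**
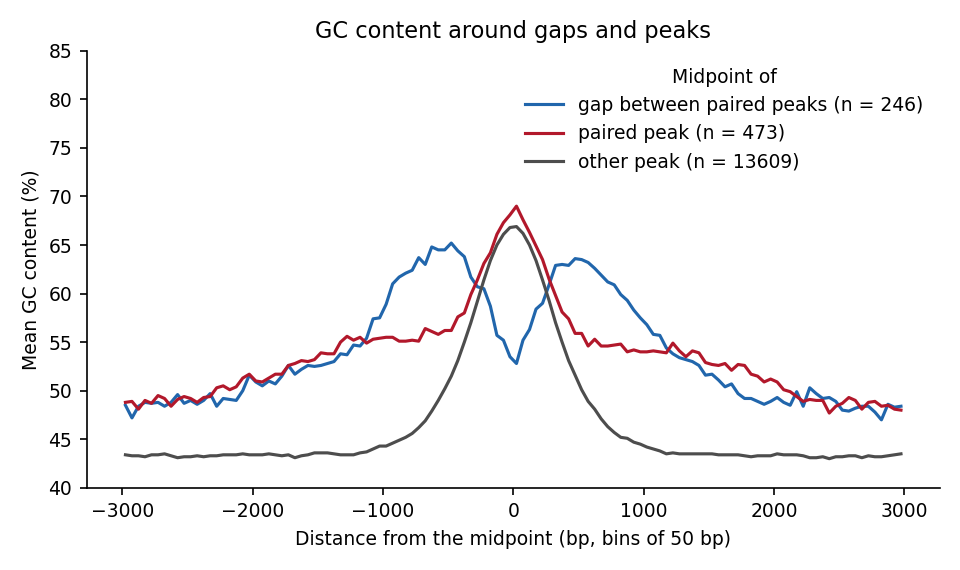
Mean GC content in percent (y axis, bins of 50 bp) by distance in bp (x axis) from the midpoint of gaps between paired peaks (n = 246), of paired peaks (n = 473) and of other peaks (n = 13609). The curve for gaps has its lowest inner value, 52.8%, 25 bp right of the midpoint, and reaches 64.8% and 62.6% at 625 bp to the left and right.

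The centres of paired peaks had a mean GC content of 68.0% ± 7.80 (SD, n = 473), against 66.5% ± 9.30 in other peaks (n = 13609), a difference of 1.50 points (interval 0.781 to 2.22). The direction depended on which peaks were compared. Within 1 kb of the TSS paired peaks were lower (70.6% against 73.8%, difference -3.21 points, interval -4.18 to -2.24), and between 1 and 10 kb they were higher (67.4% against 64.4%, difference 2.92 points, interval 1.71 to 4.12). At single-copy sequence alone, the latter difference was 0.861 points with an interval that includes 0 (-0.349 to 2.07), and that over all distances was -1.50 points (interval -2.21 to -0.782).

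Counted as CpG-island-like (at least 50% GC and a CpG ratio of at least 0.6 over the peak), 299 paired peaks (63.2%) and 45.1% of other peaks qualified. This split by distance in the same way. At promoters 193 of 233 paired peaks (82.8%) qualified, fewer than the 94.5% of other promoter peaks (difference -11.7 points, interval -17.1 to -7.32). Between 1 and 10 kb 87 of 149 (58.4%) did, more than the 36.0% of other peaks (difference 22.4 points, interval 14.0 to 30.5). Distance within this zone was not matched, and 90 of the 149 had another peak of their run within 1 kb of its TSS. In that zone the mean CpG ratio over the peak differed by 0.131, but by 0.0398 at single-copy sequence (interval 0.000467 to 0.079). The share of island-like peaks was not computed at single-copy sequence. Beyond 10 kb, 19 of 91 paired peaks (20.9%) and 10.7% of other peaks qualified (difference 10.2 points, interval 3.08 to 19.7).

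Paired peaks lay at repeated sequence less often than the rest of the list. A peak was called multi-copy where the 31-base words of its central 200 bp occurred at least 2 times in the genome by their median, which held for 72 paired peaks (15.2%, interval 12.3 to 18.7), against 46.5% of all peaks and 47.6% of the other peaks (difference -32.3 points, interval -35.4 to -28.7). Distance to genes moved with this value. Within 1 kb of the TSS the shares were alike, 6 of 233 (2.58%) and 2.62% (difference -0.0489 points, interval -1.52 to 2.91). Between 1 and 10 kb they were 13 of 149 (8.72%) and 41.7%, and beyond 10 kb they were 53 of 91 (58.2%) and 81.5% (difference -23.2 points, interval -33.5 to -13.6). Distant members thus lay at repeated sequence less often than other distant peaks, and the interval of their share was 48.0 to 67.8%. The shares depend on the word length. By 75-base words, 35 of the 473 paired peaks at all distances (7.4%) were multi-copy, against 29.2% of other peaks.

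By run, 182 of 227 held no multi-copy peak and 27 held multi-copy peaks only. Of the 72 multi-copy members, 40 had a median of 2 to 100 copies, 14 of over 100 to 1000 and 18 of over 1000. In 16 of 246 gaps (6.50%, interval 4.04 to 10.3) the neighbouring peaks shared at least 1 word of 31 bases. Reads of such sequence fit more than 1 position, and the part of their placement in these peaks was not tested.

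The pair assigned to Zp4-ps, a pseudogene 267587 and 266314 bp away, shows a repeat in full. Its peaks (chr13:11346183-11347281 and chr13:11347329-11348682, gap 48 bp) had medians of 2162.5 and 2184 copies and shared 282 words of 31 bases, with 121 bp as the longest shared stretch. The windows at the peak midpoints, chr13:11346683-11346782 and chr13:11347956-11348055 on the plus strand, are printed with the 29 bases they have in common in capitals.
Zp4-ps left peak centre: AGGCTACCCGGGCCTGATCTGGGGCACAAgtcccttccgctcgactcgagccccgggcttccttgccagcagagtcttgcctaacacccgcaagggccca
Zp4-ps right peak centre: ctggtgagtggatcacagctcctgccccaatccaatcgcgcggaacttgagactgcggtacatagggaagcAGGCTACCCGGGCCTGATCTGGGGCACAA
Those 29 bases occurred 5 times between the start of the first and the end of the second peak, 201 to 928 bp apart with a median spacing of 208 bp. This pair therefore covered an array of like units. At Bbc3 and Itga1 the longest shared stretch was inverted, at 43 and 85 bp.

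Short strings known as recognition sequences were counted on both strands of the central 200 bp. CTAATTG or CTAATGG, the LIM-homeodomain type string, occurred in 6 of 473 paired peaks (1.27%, interval 0.583 to 2.74), against 0.382% of other peaks and 0.412% of all peaks (difference 0.886 points, interval 0.19 to 2.36, and 0.502 points in the central 100 bp, interval 0.0767 to 1.72). With 6 peaks this rests on few sites. They are printed with 10 bases on either side, read 5′ to 3′ on the strand that carries the string (capitals). The positions were chr1:72583107-72583133 (March4, plus), chr6:98169271-98169297 (Gm765, plus), chr8:116960852-116960878 (Wwox, minus), chr15:84388983-84389009 (Ldoc1l, minus), chr17:48111275-48111301 (Foxp4, plus) and chr19:5570467-5570493 (Ap5b1, plus).
March4: taaaataataCTAATGGaacaattcag
Gm765: cctcagaacaCTAATGGgtctccaatg
Wwox: aaccctaatcCTAATGGgctgaagtaa
Ldoc1l: tattaggataCTAATGGgaaaatggtg
Foxp4: gcgccgagcgCTAATTGggccgcgggc
Ap5b1: ggcctcgtcaCTAATGGcggagaacca
March4 and Ldoc1l had the string within 1 kb of the TSS and Foxp4 in the distant upstream pair. The Gm765 window had a median of 253 copies. In 5 of 6 sites the string was CTAATGG. The CCAAT string can overlap CTAATTG where a G follows, as at Foxp4.

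Of the other strings, GGGCGG, the GC box of Sp and Klf factors, was in 223 paired peaks (47.1% against 41.9% of other and 42.0% of all peaks, difference 5.29 points, interval 0.757 to 9.87), and CACGTG, the E-box of bHLH factors, was in 20 (4.23% against 2.49% of other and 2.55% of all peaks, difference 1.74 points, interval 0.237 to 3.96). In the central 100 bp the intervals of both differences included 0, at 3.6 points (-0.351 to 7.89) for GGGCGG and 0.457 points (-0.399 to 2.08) for CACGTG. In the central 200 bp the intervals of the differences included 0 for the GATA type strings AGATAA or AGATAG or TGATAA or TGATAG (27 peaks, 5.71%, 4.22% of all), CCAAT (65 peaks, 13.7%, 12.9% of all), the Ets string CCGGAAGT (3 peaks, 0.634%, 0.639% of all), GCATGCGC of NRF1 (3 peaks, 0.634%, 0.675% of all) and the cyclic AMP string TGACGTCA (2 peaks, 0.423%, 0.241% of all). A match is a string in a window and no measure of binding, and 8 kinds of string were compared without adjustment.

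Gene class and chromosome varied too. Assigned genes were protein-coding for 435 paired peaks (92.0%, against 86.6% of other peaks, difference 5.32 points, interval 2.47 to 7.53), long noncoding for 21 (4.44% against 9.27%) and microRNA genes for 7 (1.48% against 2.53%). Peaks with a neighbour 1 to 10 kb away were much like paired peaks in protein-coding share (90.3%, interval 88.6 to 91.7) and long noncoding share (4.87%). Their microRNA share was 4.05%. Paired peaks made up 6.70% of the peaks on chromosome 19 (26 of 388), 5.40% on chromosome 11 (47 of 870), 4.77% on chromosome 10 and 4.60% on chromosome 7, but 1.20% on chromosome 9 (8 of 669) and 1.17% on X (6 of 515). On chromosome Y they were 2 of 10 peaks.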

How the data were processed

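Isl1 ChIP-Seq of 2 ChIP replicates and 1 input sample was available as 1 deposited peak list, whose positions and signed distances to the TSS are in bp and whose unit falls under other values, with no count, score or coverage. Per the study's methods, the authors aligned reads to mm9 with bowtie2, removed duplicates with Picard 1.136, called peaks with MACS14 (no model), dropped blacklisted regions, kept peaks common to both replicates with bedtools and annotated the closest TSS with HOMER. The depth per sample is unknown here. Whether the first base of a chromosome is 0 or 1 is not stated, which leaves each start open by 1 bp. No column belonged to a sample of another series.

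From the list, 83 repeated lines were dropped and runs were formed with gaps of at most 1000 bp. Sequence came from the NCBI m37 assembly (mm9), exons and start sites from GENCODE, and gene classes from a RefSeq table of GRCm38, which held 9031 of 9313 symbols. Words of 31 bases (75 as an alternative) were counted over the whole genome on both strands. Shares carry 95% Wilson intervals, differences of shares Newcombe intervals and differences of means normal intervals, all for counting or sampling error within 1 list. No p-values were computed. Python 3.11.15, numpy 2.4.6, pandas 2.3.3, scipy 1.17.1, numba 0.67.0, matplotlib 3.10.9 and samtools 1.23.1 were used, and the scripts were tested on simulated data.

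The members and gene lists were chosen with earlier results of these data known. Named genes were those of the lists with a paired peak, those of runs of 3 or more peaks, the 10 smallest gaps at single-copy sequence, the 5 gaps on either side of the limit, the 5 widest peaks and the 10 genes with most paired peaks. Alternatives were other gap limits, distances between midpoints, a minimum width of 500 bp, single-copy peaks alone, 1 peak per run, another annotation, longer words and a narrower window for the strings.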

Additional observations from a re-analysis of the deposited data

Results flagged for a closer look

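Repeated lines were set aside before the comparisons, and they were unevenly spread. Among the 473 paired peaks, 15 (3.17%) had their line in the deposited list more than once, each of them 2 times, against 63 of 13609 other peaks (0.463%). The 15 peaks lay in 15 runs and were wide, with a median of 1724 bp (839 bp in paired peaks with 1 line). They were assigned to Vapb, Ahdc1 (2 peaks), Crlf2, Tmem229a, Igf2, Zfp423, Mir212, Mapt, Phf21b, Brd2, Foxp4, Nrtn, Tmx3 and Lbx1. Width moved with the repeats, and its part was not tested.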

How the results depend on the processing

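Of 34 values under alternative settings for 13 results, 25 kept their direction and stayed within the interval of the reported value (for the number of peaks, within 1.5 times), 3 kept their direction outside it and 6 changed direction. The number of paired peaks was 368 with gaps of at most 500 bp, 645 with gaps of at most 2000 bp, 471 with midpoints at most 2000 bp apart, 419 among peaks of at least 500 bp and 383 among single-copy peaks, against 473. The difference in the share within 1 kb of the TSS was 6.49 points with gaps of at most 2000 bp and -13.8 with single-copy peaks alone, against 11.2. The difference in multi-copy share was -21.8 points with 75-base words and -23.2 for peaks beyond 10 kb, against -32.3. The difference in GC content was -1.37 points with single-copy peaks alone and -3.21 within 1 kb of the TSS, against 1.50. The settings by distance to the TSS were chosen after seeing the data. In the central 100 bp the differences for GCATGCGC, TGACGTCA and CCAAT were 0.0628, -0.103 and -0.065 points, all close to 0 with intervals that include it. Those for CACGTG (0.457 against 1.74 points) and GGGCGG (3.6 against 5.29) came to include 0, that for CTAATTG or CTAATGG was 0.502 against 0.886, and that for CCGGAAGT was -0.0531 against -0.00503. The cause of these changes was not tested. No paired analysis was possible because both replicates were combined into 1 list, and no replicate could be left out for the same reason. The list holds peaks that passed in both replicates, without their strength, and read depth behind them is unknown.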
